A study of Mus musculus with 8 samples.

Results

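The 7 ABC drug efflux pumps described here are Abcg2, Abcb1a, Abcb1b, Abcc1, Abcc3, Abcc4 and Abcc5, taken by gene symbol from the 16647 gene rows of a single-cell count table. All 7 had a row and at least 1 count. Tri-PyMT cells derive from the breast tumour of a triple transgenic mouse. MMTV-PyMT drives a viral oncogene in mammary epithelium, Fsp1-cre makes Cre recombinase from the promoter of Fsp1 (S100a4), and Rosa26mT/mG turns from red (RFP) to green (GFP) fluorescence once Cre has acted. GFP+ and RFP+ populations, which share all 3 alleles, were sorted from cells grown in DMEM with serum, with no drug named in the labels, and profiled by Drop-seq, which counts polyadenylated RNA for each cell barcode. Each population has 4 samples in the labels. They are the 2 lanes of each of 2 libraries, and all comparisons are of 2 libraries with 2. Libraries are numbered 1 and 2 within a population in the order of the sample titles. The deposited column names number the GFP+ ones 1 and 2 and the RFP+ ones 2 and 3. The labels name no separate cultures, so the spread between these libraries may be technical, and no p-value covers spread between cultures. The edgeR p-values rest mainly on counting error and on a dispersion moderated across genes. A gene's own spread between libraries has little weight in them.

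ABC transporters are membrane proteins that use ATP to move substrates across a membrane. The members of the B, C and G subfamilies studied here carry drugs and their conjugates out of the cell and are known for multidrug resistance of tumours, breast tumours among them. Abcg2 (breast cancer resistance protein) exports mitoxantrone and topotecan and marks the dye-excluding side population of stem-like cells. P-glycoprotein, the exporter of taxanes, anthracyclines and vinca alkaloids, is encoded in the mouse by a pair of neighbouring genes, Abcb1a and Abcb1b. Abcc1 (MRP1) exports glutathione conjugates and anthracyclines, Abcc3 (MRP3) glucuronides and bile salts, and Abcc4 and Abcc5 (MRP4 and MRP5) cyclic nucleotides and nucleotide analogues.

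Abcg2 had the most counts of the pumps and passed the test between the populations, and Abcb1b had nearly all counts of the P-glycoprotein genes, so the 250 bases upstream of their RefSeq start sites (GRCm38.p6, plus strand, 5' to 3') are shown. RefSeq gives Abcg2 3 alternative starts, and a count of polyadenylated RNA does not tell which was used. Capitals mark matches, on either strand, to the GC box (GGGCGG) and the CCAAT box (CCAAT).
Abcg2 start A (chr6:58584283-58584532): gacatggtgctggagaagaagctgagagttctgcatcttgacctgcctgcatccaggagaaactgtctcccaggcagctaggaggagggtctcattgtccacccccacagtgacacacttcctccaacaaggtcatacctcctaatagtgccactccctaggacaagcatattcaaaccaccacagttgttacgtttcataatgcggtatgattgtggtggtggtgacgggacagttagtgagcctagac
Abcg2 start B (chr6:58596422-58596671): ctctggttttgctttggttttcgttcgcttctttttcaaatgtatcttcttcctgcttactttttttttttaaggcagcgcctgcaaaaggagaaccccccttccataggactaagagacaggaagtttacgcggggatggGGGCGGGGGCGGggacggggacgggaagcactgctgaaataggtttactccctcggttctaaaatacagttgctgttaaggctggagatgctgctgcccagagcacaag
Abcg2 start C (chr6:58640296-58640545): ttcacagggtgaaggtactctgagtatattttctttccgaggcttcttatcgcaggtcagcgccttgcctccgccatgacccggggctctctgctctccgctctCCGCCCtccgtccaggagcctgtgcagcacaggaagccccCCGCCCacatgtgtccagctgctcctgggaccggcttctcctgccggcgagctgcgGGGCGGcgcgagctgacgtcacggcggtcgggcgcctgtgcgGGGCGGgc
Abcb1b (chr5:8797897-8798146): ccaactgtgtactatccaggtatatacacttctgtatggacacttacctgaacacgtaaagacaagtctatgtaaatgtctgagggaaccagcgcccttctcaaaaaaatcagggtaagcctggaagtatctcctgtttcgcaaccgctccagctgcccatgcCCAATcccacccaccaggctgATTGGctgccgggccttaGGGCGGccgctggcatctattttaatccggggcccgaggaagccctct
The start C window of Abcg2 was 67.6% G and C with 23 CpG dinucleotides and held 4 GC boxes. The start B window had 10 CpG and held 2 GC boxes. The start A window had 3 CpG and no match to any motif searched. The Abcb1b window held 1 GC box and a pair of CCAAT boxes on opposite strands. The other motifs searched on both strands were the TATA box (TATAAA), the antioxidant response element core (TGACNNNGC), the E-box bound by Zeb and Snail factors (CAGGTG) and the xenobiotic response element core (GCGTG). None of these was in the 4 windows. Of the windows not printed, those upstream of the 2 RefSeq starts of Abcc4 both held the antioxidant core, and 1 of them also held 3 GC boxes, the E-box and 2 xenobiotic cores, while that of Abcc5 held no motif searched. Of 32526 upstream windows of this length, 33% held a GC box, 33.8% a CCAAT box, 12.3% a TATA box, 10.2% the antioxidant core, 17.3% the E-box and 28.4% the xenobiotic core. A match is a description of the letters and does not show that a factor binds.

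The whole series gives the following frame. After cells under 500 counts were left out, 7390 of 7400 cells remained, with 2598187 and 2550319 counts in the libraries labelled GFP+ and 3081009 and 2988631 in those labelled RFP+. Median counts per cell were 1166 to 1358, and no cell barcode was shared between libraries. The reporter rows go against the labels: CUSTOM_RFP was at 2943 and 3053 CPM (a gene's counts per library, at equal library totals) in the libraries labelled GFP+ and at 132 and 137 CPM in those labelled RFP+, and CUSTOM_GFP was at 99.7 and 104 CPM against 612 and 590 CPM. All directions below follow the labels. S100a4 was at 1843 and 2114 CPM in GFP+ and 648 and 676 CPM in RFP+ labelled libraries. Epcam was at 221 and 214 CPM in GFP+ and 372 and 389 CPM in RFP+ labelled libraries, and all 5 mammary epithelial markers had counts in these data. Immune markers, 6 genes of which Lyz2 was at 0, summed to 6.93 and 8.23 CPM in GFP+ and 10.7 and 13.4 CPM in RFP+ labelled libraries.

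Levels are compared between genes per kilobase of the longest annotated coding transcript, and in CPM where the order differs. Reads primed on the poly(A) tail fall near the transcript end, so counts need not rise with length. Abcg2 ranged from 8.25 to 14.8 CPM per kb over the 4 libraries and Abcb1b from 6.88 to 8.29 CPM per kb. By that measure the lowest Abcg2 library was just below the highest Abcb1b library. In CPM they did not overlap, at 47.2 to 84.7 CPM for Abcg2 and 29.6 to 35.7 CPM for Abcb1b. Abcc1 came next, at 2.66 to 3.45 CPM per kb, apart from its neighbours in the order. Abcc5, at 0.670 to 1.52 CPM per kb, and Abcc4, at 0.625 to 1.35 CPM per kb, did not differ beyond their spread. Abcc3 and Abcb1a, at no more than 0.195 and 0.130 CPM per kb, were lowest and overlapped. Of 42 ABC family genes in the table, 4 lay above Abcg2 per kilobase. They were Abcf1, Abce1 and Abcf2, which have no membrane domains, and Abcd3, a peroxisomal transporter at 15.8 CPM per kb. All 4 were named after their levels were seen. In CPM, Abcd3 lay below Abcg2, with means over the libraries of 55.1 and 67.1 CPM.

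**Figure D1:**
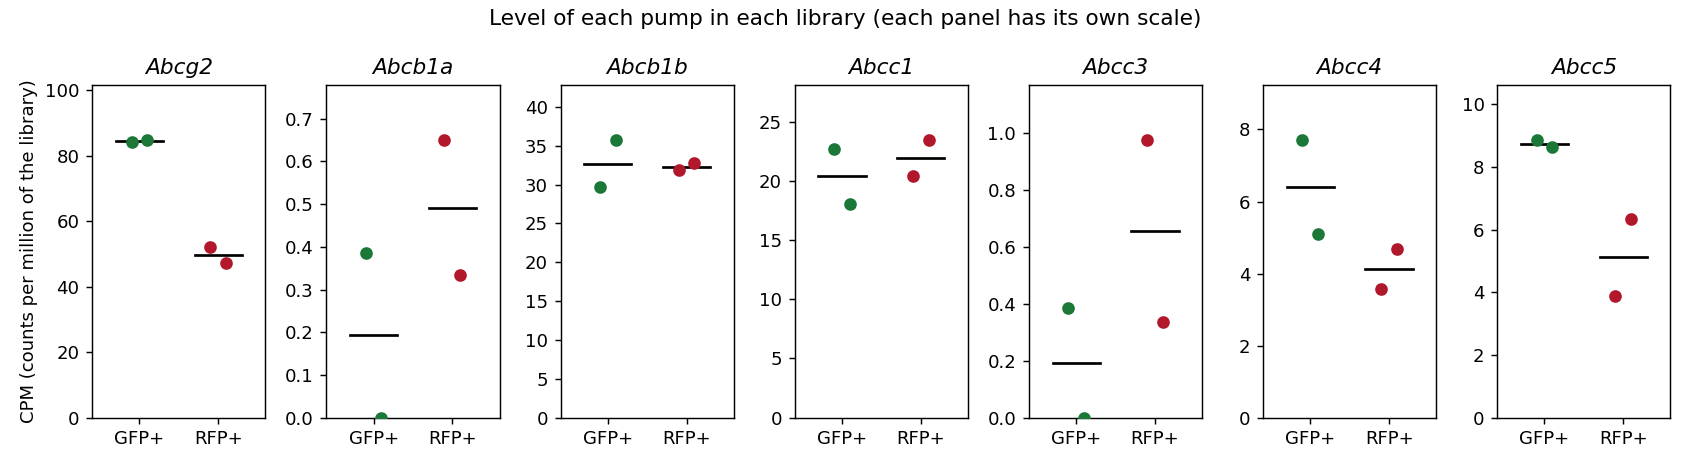
Level of each pump, in CPM, in the 2 libraries labelled GFP+ and the 2 labelled RFP+ (points, with the mean as a line). Each panel has its own linear scale from 0. The GFP+ points lie above the RFP+ points for Abcg2, Abcc5 and Abcc4, and overlap them for Abcb1b and Abcc1.

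Abcg2 was higher in the libraries labelled GFP+. The gene (ENSMUSG00000029802.13, GRCm38 chromosome 6, 58584523 to 58695676, plus strand) had 219 and 216 counts, or 84.3 and 84.7 CPM, in the libraries labelled GFP+, against 161 and 141 counts, or 52.3 and 47.2 CPM, in those labelled RFP+. Both GFP+ values lay above both RFP+ values, by several times the gap between libraries of a population. The means were 84.5 ± 0.287 CPM in GFP+ and 49.7 ± 3.59 CPM in RFP+ labelled libraries (SD, n = 2 each), for a log2 fold of 0.75 ± 0.11 (SE), a 1.69-fold difference with a 95% interval of 1.44 to 1.98 and an edgeR quasi-likelihood adjusted p of 6.13e-07 over 10496 genes. DESeq2's Wald test gave 0.75 ± 0.19 on the log2 scale (adjusted p = 0.00177). Of all genes tested, 22.9% were called in either direction and 11.9% as higher in GFP+, and 59.3% had populations that did not overlap in CPM. The call on Abcg2 is 1 of the 5 tested pumps, a share close to that background. The CPM of both GFP+ labelled libraries exceeded that of both RFP+ labelled libraries for Abcg2, Abcc4 and Abcc5, as it did for 30.9% of all genes, while 28.3% lay the other way round. DESeq2 called 6.80% of all genes. The 4 fibroblast markers in the data, all with counts, summed to 9.62 and 7.45 CPM in GFP+ and 2.27 and 2.01 CPM in RFP+ labelled libraries, and their part in the difference of Abcg2 was not tested.

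Abcb1b did not differ detectably between the populations. The gene (chromosome 5, 8798147 to 8866315) had 77 and 91 counts, or 29.6 and 35.7 CPM, in the libraries labelled GFP+ and 98 and 98 counts, or 31.8 and 32.8 CPM, in those labelled RFP+. The GFP+ values lay on either side of the RFP+ values. The log2 fold was 0.01 ± 0.16, with a 95% interval of the fold from 0.809 to 1.25 and an edgeR adjusted p of 0.984. A fold as large as that of Abcg2 lies outside this interval.

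Abcb1a, the neighbouring P-glycoprotein gene (chromosome 5, 8660077 to 8748575), had 1 and 0 counts in the libraries labelled GFP+ and 2 and 1 counts in those labelled RFP+. Pooled over libraries this was 0.194 CPM in GFP+, with a 95% Poisson interval of 0.00492 to 1.08, and 0.494 CPM in RFP+, with one of 0.102 to 1.44. The populations cannot be told apart at this depth, and no fold is given. Abcb1b had 364 counts in all against 4 for Abcb1a, and the genes lie 49571 bases apart on the same strand. The transcripts are alike in sequence: 15.5% of the 50-base words of Abcb1a also occur in Abcb1b, and the longest run they share is 338 bases. In the last 500 bases, where reads primed on the poly(A) tail fall, the longest run shared by these end stretches was 9 bases. Of the 50-base words in the last 500 bases of Abcb1b, 3.1% also occur somewhere in a transcript of Abcb1a or Abcb4, and none of those of Abcb1a occur in another gene. How reads that match both genes were counted is not given in the sources used here. Of the antisense genes whose exons overlap the pair, Gm5106, opposite Abcb1b, had 1 count in all.

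Abcc1 was the most abundant member of the C subfamily. It had 59 and 46 counts, or 22.7 and 18.0 CPM, in the libraries labelled GFP+ and 63 and 70 counts, or 20.4 and 23.4 CPM, in those labelled RFP+ (chromosome 16, 14361558 to 14475737). The populations overlapped. The log2 fold was -0.11 ± 0.20, with a 95% interval of the fold from 0.705 to 1.21 and an edgeR adjusted p of 0.730.

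Abcc5 and Abcc4 had more counts in the libraries labelled GFP+, but neither passed the test. Abcc5 (chromosome 16, 20331303 to 20426394) had 23 and 22 counts, or 8.85 and 8.63 CPM, in GFP+ and 12 and 19 counts, or 3.89 and 6.36 CPM, in RFP+ labelled libraries. Its log2 fold of 0.76 ± 0.34 was as large as that of Abcg2, but the p was 0.0307 before adjustment and 0.105 after it (edgeR). The 95% interval of the fold, which is not adjusted for the number of genes, was 1.05 to 2.73. Leaving out library 2 labelled RFP+ gave a log2 fold of 1.16 (edgeR adjusted p = 0.0701), and without library 1 labelled RFP+ it was 0.44 (adjusted p = 0.546). Abcc4 (chromosome 14, 118482692 to 118706219) had 20 and 13 counts, or 7.70 and 5.10 CPM, in GFP+ and 11 and 14 counts, or 3.57 and 4.68 CPM, in RFP+ labelled libraries. The log2 fold was 0.62 ± 0.39, with a 95% interval of the fold from 0.897 to 2.65 and an edgeR adjusted p of 0.268. With fewer than 80 counts per gene in all, a difference of the size seen for Abcg2 lies inside both intervals.

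Abcc3 (chromosome 11, 94343295 to 94392997) had 1 and 0 counts in the libraries labelled GFP+ and 3 and 1 counts in those labelled RFP+. Pooled, this was 0.194 CPM in GFP+ with a 95% Poisson interval of 0.00492 to 1.08, and 0.659 CPM in RFP+ with one of 0.180 to 1.69. As for Abcb1a, a difference was not detectable at this depth. Abcb1a and Abcc3 were the members under the minimum of 20 counts over the 4 libraries, a filter that does not look at the populations, and the other 5 were tested.

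**Figure D2:**
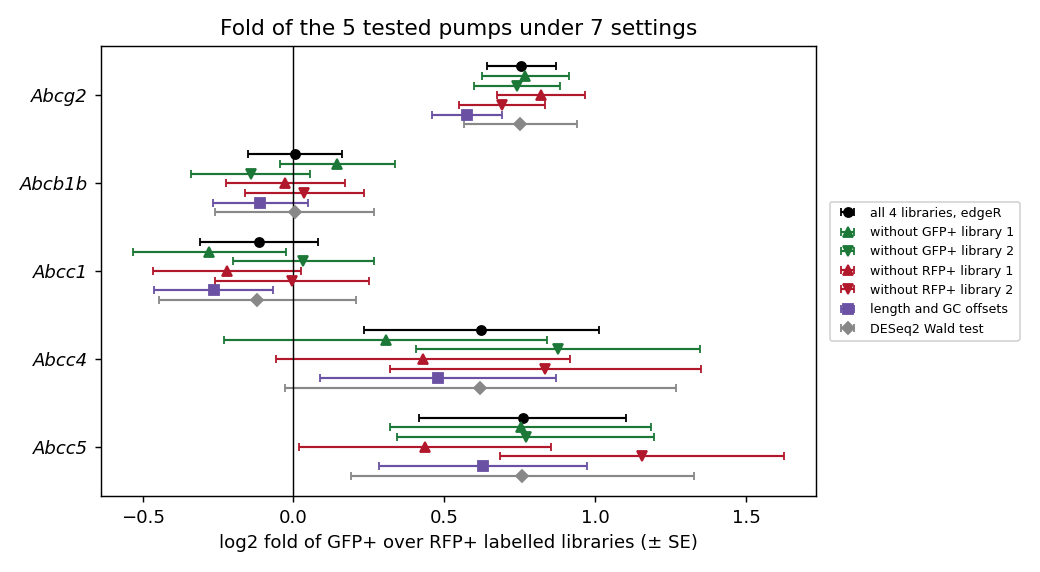
Log2 fold of GFP+ over RFP+ labelled libraries for the 5 tested pumps, with its SE as a bar, from edgeR on all 4 libraries, without each library in turn, with length and GC offsets, and from DESeq2. Abcg2 lies between 0.58 and 0.82 in every setting drawn, and the values of Abcb1b and Abcc1 lie on both sides of 0.

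The pumps have long transcripts, from 4306 bases for Abcb1b to 6792 bases for Abcc1, and the fold between populations rose with transcript length across genes. Across 9957 tested genes with an annotated length, Spearman's rho of log2 fold with length was 0.29, and genes are not independent replicates. The median log2 fold was -0.15 in the shortest of 5 equal bins of genes and 0.19 in the longest. Of the tested pumps all but Abcb1b lie in the longest bin, and the part of length in their folds was not tested beyond the offsets given next. With offsets for length and GC content, the log2 fold of Abcg2 was 0.58 ± 0.12 with an edgeR adjusted p of 6.72e-05, that of Abcc5 was 0.63, that of Abcc4 0.48, that of Abcb1b -0.11 and that of Abcc1 -0.26.

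Most cells had no pump count. In all cells kept, with medians of 1166 to 1358 counts, Abcg2 was counted in 11.5% and 10.9% of cells in the libraries labelled GFP+ and in 7.46% and 6.61% in those labelled RFP+. Because a share rises with depth, each cell was also thinned to 1000 counts, leaving out cells with fewer, which kept 1419 and 1233 cells in GFP+ and 1545 and 1423 in RFP+ labelled libraries. Abcg2 was then counted in 7.89% and 8.35% of cells in GFP+ and in 5.83% and 4.85% in RFP+ labelled libraries. The 95% Clopper-Pearson intervals, which cover counting error only, were 6.54 to 9.42% and 6.87 to 10.0% in GFP+ and 4.71 to 7.11% and 3.79 to 6.10% in RFP+. The values of the populations did not overlap, but the interval of RFP+ library 1 overlapped those of both GFP+ libraries. With 2 libraries against 2 the exact permutation test of a share cannot go below a two-sided p of 0.333, which is what it gave.

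Taken as a set, the remaining pumps were counted in shares of cells that overlapped between the populations. Any of the 6 pumps other than Abcg2 was counted in 6.91% and 6.49% of thinned cells in GFP+ and in 6.80% and 6.61% in RFP+ labelled libraries. Abcb1b was counted in 2.68% and 3.89% of thinned cells in GFP+ and 3.37% and 3.44% in RFP+ labelled libraries, and Abcc1 in 2.54% and 1.62% against 2.27% and 2.46%. Abcc5 was counted in 1.13% and 0.730% of thinned cells in GFP+ and 0.518% and 0.703% in RFP+ labelled libraries, values that did not overlap but whose binomial intervals did. Thinned to 1500 counts, Abcc5 was counted in 12 and 6 cells (1.88% and 1.19%) in GFP+ and in 1 and 3 cells (0.153% and 0.457%) in RFP+ labelled libraries. At 1000 counts Abcc4 was counted in 0.634% and 0.568% of cells in GFP+, against 0.583% and 0.281% in RFP+. No cell type that should lack a pump was set apart in these data to give a background. As a stand-in, any of 6 immune markers was counted in 0.493% and 1.14% of thinned cells in GFP+ and 1.36% and 1.41% in RFP+ labelled libraries. The stand-in joins 6 genes, and its counts may be true immune transcripts. It therefore cannot show whether a single pump is expressed or absent. The shares of Abcc4 and Abcc5 rest on few cells with no background, and are read neither as expression nor as a difference. For scale only, they overlapped the range of the stand-in over the libraries. The shares of Abcg2, Abcb1b and Abcc1 lay above that range in the 4 libraries, but the binomial interval of Abcc1 in GFP+ library 2 (0.994 to 2.49%) reached into it.

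**Figure D3:**
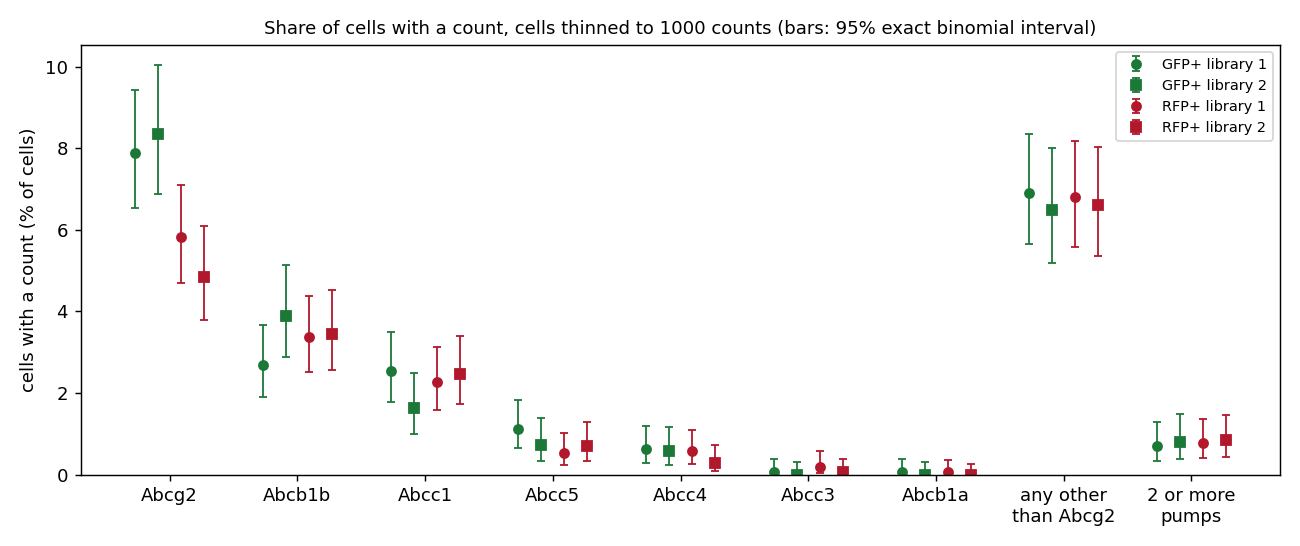
Share of cells, in percent, with at least 1 count of each pump, of any pump other than Abcg2, and of 2 or more pumps, in cells thinned to 1000 counts (points are libraries, bars are 95% exact binomial intervals). Abcg2 sits between 7.89% and 8.35% in GFP+ and between 4.85% and 5.83% in RFP+ labelled libraries, and the shares for any other pump sit between 6.49% and 6.91%.

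Within cells, pump counts were mostly 1. Of 660 cells with Abcg2, 588 had 1 count, 67 had 2 and 5 had 3 or more, with a maximum of 3. If every cell of a library had the same rate per count, 689 cells would have had Abcg2 and 44.9 cells would have had 2 or more counts, against 72 observed. Most of that excess was in GFP+ library 1, with 33 cells against 16.4. GFP+ library 2 had 20 against 14.5, and the RFP+ libraries had 11 against 7.86 and 8 against 6.12. Abcb1b had 2 counts in 17 cells, against 11.1 at a common rate, and Abcc1 in 8 cells, against 4.92. Whether molecular identifiers were collapsed is not given in the sources used here, and the part of repeated counts in these numbers was not tested. With the cells of a library cut into 4 equal groups by depth, the deepest group had Abcg2 in 17.0% and 17.8% of cells in GFP+ and 12.2% and 12.6% in RFP+ labelled libraries, and the shallowest group in 6% and 6% against 4.4% and 3.4%. Abcg2 CPM was above the RFP+ range in each of the 4 depth groups, from 67.2 and 68.9 CPM in GFP+ against 48.8 and 39.7 CPM in RFP+ in the shallowest to 80.0 and 84.1 CPM against 49.4 and 52.6 CPM in the deepest.

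Some pairs of pumps were counted in the same cell about as often as their separate shares give, and others more often. Counts of 2 or more pumps were seen in 0.705% and 0.811% of thinned cells in GFP+ and in 0.777% and 0.843% in RFP+ labelled libraries. Abcg2 and Abcb1b were both counted in 15 thinned cells, where independence within each library gives 12.4, and Abcg2 and Abcc1 in 8, where it gives 8.25. Abcb1b and Abcc1 shared 8 cells, where independence gives 4.13, and Abcb1b and Abcc5 shared 4, where it gives 1.39. Abcc1 and Abcc5 shared 0, where independence gives 0.979. In cells that were not thinned, Abcb1b and Abcc5 shared 10 cells, where independence gives 3.44. Abcg2 and Abcc4 shared 10, where it gives 5.46, and Abcg2 and Abcc5 shared 11, where it gives 6.94. Abcb1b and Abcc1 shared 13, where it gives 10.7, and Abcc1 and Abcc5 shared 2, where it gives 2.27. The number expected takes no account of depth, which differs between cells that were not thinned, and the part of depth was not tested. These are descriptions of few cells, and a cell counted for several pumps may hold more than 1 cell, since no doublets were removed.

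The difference in Abcg2 was also looked at along the span from epithelial to mesenchymal cells within each library. Cells of a library were ordered by summed counts of 14 mesenchymal genes over those of 16 epithelial genes, such as Vim and Krt18, and cut into 5 equal pools. Abcg2 was at 75.1 to 97.4 CPM in the 10 pools of GFP+ and at 42.2 to 65.5 CPM in the 10 pools of RFP+ labelled libraries, with no overlap. The pools closest in epithelial level between the populations summed to 2552 and 2380 CPM of epithelial genes in GFP+ and 2535 and 2575 CPM in RFP+ labelled libraries. Abcg2 was at 77.8 and 75.1 CPM in these GFP+ pools and at 58.1 and 57.3 CPM in these RFP+ pools. Their 95% Poisson intervals overlapped, from 54.5 to 108 and 52.3 to 104 CPM in GFP+ and from 40.2 to 81.1 and 39.5 to 80.5 CPM in RFP+. At this epithelial level the difference was in the same direction but within counting error of single pools, and it was not tested. These pools were not matched in mesenchymal genes, at 17010 and 17300 CPM in GFP+ and 15630 and 15860 CPM in RFP+. The most epithelial GFP+ pools, at 4346 and 4231 CPM of epithelial genes, had Abcg2 at 82.3 and 75.2 CPM. RFP+ pools just above that level, at 4925 and 4879 CPM of epithelial genes, had Abcg2 at 42.2 and 47.7 CPM. Those just below it, at 3654 and 3750 CPM, had 51.2 and 45.9 CPM. The most mesenchymal pools of RFP+ labelled libraries had Abcg2 at 65.5 and 42.3 CPM.

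Within a population, in cells that were not thinned, Abcg2 followed the axis weakly or not at all. The most mesenchymal pool had 97.4 and 94.1 CPM in GFP+ labelled libraries, against 82.3 and 75.2 CPM in the most epithelial pool of the same libraries. In RFP+ labelled libraries the most mesenchymal pool had 65.5 and 42.3 CPM, against 45.0 and 43.2 CPM in the most epithelial pool. The log2 ratio of these ends, with a pseudocount of 5 CPM, was 0.23 and 0.31 in GFP+ and 0.50 and -0.03 in RFP+ labelled libraries. The ends of Abcb1b and of Abcc1 differed in both directions between libraries, from -0.73 to 0.41 and from -0.43 to 0.65. Abcc5 had end ratios of 0.75 and 0.60 in GFP+ and 0.34 and -0.21 in RFP+ labelled libraries, on at most 9 counts a pool. In cells thinned to 1000 counts the end ratios of Abcg2 were 0.12 and 0.56 in GFP+ and 0.36 and 0.41 in RFP+ labelled libraries.

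**Figure D4:**
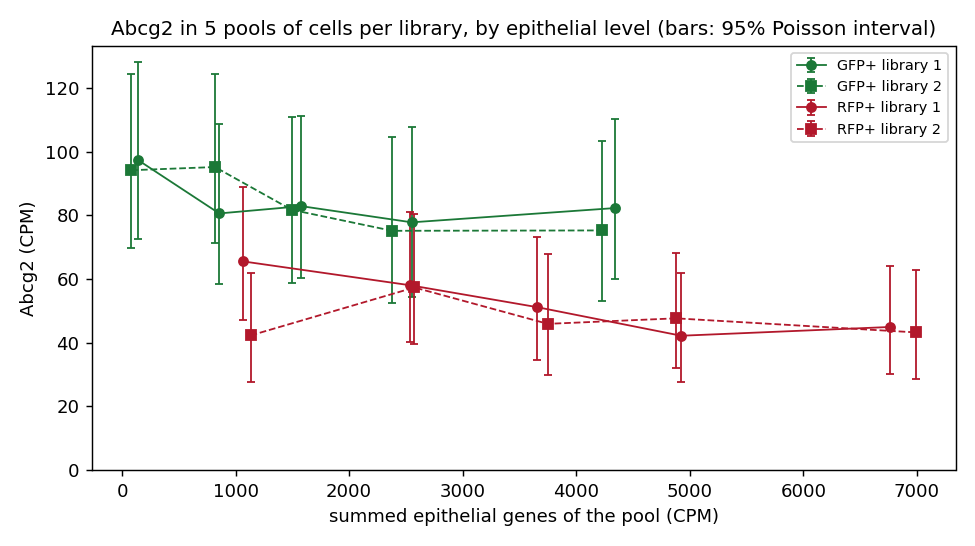
Abcg2 in CPM in 5 pools of cells per library against the summed epithelial genes of the pool in CPM, with 95% Poisson intervals as bars. The 10 GFP+ pools lie between 75.1 and 97.4 CPM and the 10 RFP+ pools between 42.2 and 65.5 CPM, and the bars of single pools overlap where epithelial levels coincide.

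Cell by cell, the binomial intervals of the Abcg2 share overlapped between cells with and without S100a4, Krt18 or Vim. Among thinned cells of GFP+ labelled libraries, Abcg2 was counted in 7.38% and 7.92% of cells with S100a4 and in 9.55% and 10.2% of cells without it. In RFP+ labelled libraries it was counted in 5.19% and 4.93% of cells with S100a4 and in 6.29% and 4.79% without it. The binomial intervals of cells with and without S100a4 overlapped in every library. For Krt18 the shares of Abcg2 were 8.48% and 6.94% with and 7.66% and 8.91% without it in GFP+, and 5.30% and 5.42% with and 6.60% and 4.01% without it in RFP+ labelled libraries. For Vim they were 7.69% and 8.43% with and 10.5% and 7.32% without it in GFP+ labelled libraries. In RFP+ labelled libraries they were 6.10% and 5.26% with Vim and 4.76% and 3.31% without it. These differences were not tested. Some cells of RFP+ labelled libraries carried CUSTOM_RFP, the reporter row that was higher in the libraries labelled GFP+. Abcg2 was counted in 5 of 179 and 5 of 182 of these thinned cells (2.79% and 2.75%), against 6.22% and 5.16% of cells without CUSTOM_RFP. The intervals overlapped (0.913 to 6.40% against 5.00 to 7.64% in library 1). In GFP+ labelled libraries the same split ran in opposite directions, with Abcg2 in 7.51% and 8.76% of cells with CUSTOM_RFP and in 12 of 87 and 1 of 68 cells without it (13.8% and 1.47%).

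Over the 20 pools, the genes with at least 50 CPM whose level was most like that of Abcg2 were Cd63, a tetraspanin of endosomes, Mki67, the Ki-67 proliferation antigen, and Nudt4, a hydrolase of inositol pyrophosphates. Pearson's r of log2 CPM was 0.93 for Cd63 and 0.92 for Mki67 and Nudt4, out of 3293 genes searched. The pools share libraries and population, so the r within 10 pools was lower, at 0.63 in GFP+ and 0.41 in RFP+ for Cd63, 0.41 and 0.46 for Mki67, and 0.87 and 0.51 for Nudt4.

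Other ABC family genes were called by edgeR about as often as all genes were in either direction, and each call was of a higher level in GFP+ labelled libraries. With 35 listed in the data and 14 tested, 3 rose in the libraries labelled GFP+ and 0 fell by edgeR, with 4 higher and 0 lower at an unadjusted p under 0.05, and DESeq2's Wald test called 2 higher and 0 lower. Over all genes 22.9% were called by edgeR, 11.9% as higher and 11% as lower, and DESeq2 called 6.80%, 3.45% as higher. An unadjusted p under 0.05 (edgeR) was had by 3518 of all 10496 genes tested. The median log2 fold of the other ABC genes was 0.20, against 0.00 over all genes tested. Abce1, which recycles ribosomes, had 285 ± 2.65 CPM in GFP+ and 224 ± 1.57 CPM in RFP+ labelled libraries (SD, n = 2 each), 0.33 on the log2 scale (edgeR adjusted p = 0.000121). Abcf2 had 158 ± 5.38 CPM against 116 ± 0.0700 CPM, a log2 fold of 0.44. Abca5, a lysosomal lipid transporter, had 14.9 ± 2.83 CPM against 7.07 ± 1.48 CPM and a fold of 1.06 on the log2 scale, and its edgeR adjusted p of 0.00319 was 0.0752 without library 1 labelled GFP+ and 0.0629 without library 2 labelled RFP+. Abcb4, the phospholipid transporter next to the P-glycoprotein genes, had 1 count in all.

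Regulators of the pumps and the proteins that hold them in the membrane gave calls in both directions. Among 22 tested, 5 rose and 3 fell in the libraries labelled GFP+, against 11.9% higher and 11% lower over all genes, and the median log2 fold was -0.03. DESeq2's Wald test called 2 higher and 1 lower, against 3.45% higher and 3.35% lower over all genes. Slc9a3r1, the scaffold NHERF1 that binds the tails of MRP proteins, fell to 57.5 ± 5.29 CPM in GFP+, against 109 ± 6.27 CPM in RFP+ labelled libraries (SD, n = 2 each), -0.93 ± 0.11 on the log2 scale (edgeR adjusted p = 4.65e-10). Msn and Rdx, which tie membrane proteins to actin, had log2 folds of 0.26 and 0.25. With length and GC offsets the call on Rdx was lost (edgeR adjusted p = 0.0937). Nfe2l2, which drives antioxidant and pump genes, was at 150 and 151 CPM as means of GFP+ and RFP+ labelled libraries, and its repressor Keap1 at 52.7 and 52.9 CPM. Both were named after their values were seen, and neither passed (edgeR adjusted p = 0.922 and 0.95).

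Enzymes of drug metabolism and uptake carriers are set against the same shares of all genes, 22.9% called by edgeR and 6.80% by DESeq2. At an unadjusted p under 0.05 (edgeR) the background was 3518 of 10496 genes. Of 21 tested genes of glutathione synthesis and conjugation, 3 rose and 3 fell, with a median log2 fold of -0.01, and DESeq2's Wald test called 1 higher and 1 lower. Gstp1, a glutathione transferase with near-identical copies and therefore uncertain, had 86.3 ± 18.9 CPM in GFP+ and 48.6 ± 1.52 CPM in RFP+ labelled libraries (SD, n = 2 each), a log2 fold of 0.82. Gstk1, a mitochondrial and peroxisomal transferase, fell to 10.1 ± 0.133 CPM in GFP+, against 24.9 ± 2.17 CPM in RFP+, a log2 fold of -1.31. Of 24 tested oxidising, reducing and aldehyde enzymes, 5 rose and 2 fell, with a median of 0.10, and DESeq2's Wald test called 1 higher and 0 lower. Cyp51, a cytochrome P450 of cholesterol synthesis, had 139 ± 3.75 CPM in GFP+ against 93.1 ± 1.30 CPM in RFP+, and Aldh1a1, named after its values were seen, was listed at 0 in every library. Of 15 tested uptake carriers, 0 rose and 3 fell by edgeR, with 0 higher and 4 lower at an unadjusted p under 0.05, and DESeq2's Wald test called 0. Slc3a2, a subunit of amino acid carriers, was among them, with 106 ± 3.27 CPM in GFP+ and 126 ± 21.5 CPM in RFP+ labelled libraries, and its call was lost in 9 of the 14 alternatives, among them the fit without library 1 labelled RFP+ (edgeR adjusted p = 0.693), without library 1 labelled GFP+ (0.0800) and without library 2 labelled GFP+ (0.141). Of 27 genes called over these lists, 7 were called under each of 14 alternatives, namely Abce1, Abcf2, Msn, Slc9a3r1, Gstp1, Gstk1 and Cyp51.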

How the data were processed

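Drop-seq of polyadenylated RNA with Nextera libraries was used, per the labels, with GRCm38 as reference, per the submitters' processing notes. Values are raw counts, deposited by the authors for each gene and cell. The aligner, the counter and the use of molecular identifiers: not given in the sources used here. Both lanes of a library stand pooled, so the library is the replicate. Cells needed 500 counts and under 20% mitochondrial counts, and doublets were neither called nor removed. Library sums were tested by edgeR 4.0.16 (R 4.3.3; TMM, quasi-likelihood, Benjamini-Hochberg, threshold 0.05) over 10496 genes with at least 20 counts in all. The SE (absolute log2 fold divided by root F) uses a dispersion moderated across genes. Scripts were tested on simulated data. Libraries of a population differed by more than sampling noise (chi-square per degree of freedom 1.41 for GFP+, 1.36 for RFP+). Coordinates and lengths are from GENCODE M21, upstream sequences from RefSeq (GRCm38.p6). Poisson and binomial intervals cover counting error only, while the intervals of the folds are built from the SE. The members and lists were chosen with earlier results of these data known. Genes named are the pumps, up to 6 called genes per list by size of fold with at least 10 CPM, the 3 genes most like a pump of at least 50 CPM, and checks, not all of them reported. Alternatives were DESeq2 1.42.0, other scalings and filters, left-out libraries, thinned, deeper or trimmed cells, a replicate block, and length and GC offsets.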

Additional observations from a re-analysis of the deposited data

Results flagged for a closer look

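Among 17 contrasts between cells within libraries (4 marker genes for each of 3 pumps, and the axis for 5 pumps), 2 ran in opposite directions in the populations. The difference between populations was not tested for either. The rule looks only at the sign in each library, so random signs would also flag some contrasts. The 2 are not read as more than that. The share of thinned cells with Abcb1b, in cells with S100a4 minus cells without it, was -1.57 and -0.447 percentage points in libraries 1 and 2 labelled GFP+ and 0.783 and 1.73 points in those labelled RFP+. The share with Abcc1, in cells with Vim minus cells without it, was 2.74 and 0.431 points in libraries labelled GFP+ and -0.345 and -1.08 points in those labelled RFP+. The counts behind these are small: of cells without Vim in libraries labelled GFP+, 0 of 105 and 1 of 82 had Abcc1.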

How the results depend on the processing

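Abcg2 kept its call and its direction under all 14 alternatives, with a log2 fold of 0.58 to 0.82 and a highest adjusted p of 0.00177, and no other pump was called under any. Abcc4 and Abcc5 kept their direction and passed under none of the 13 that gave them a value. Abcb1b had log2 folds of -0.00038 without a filter, -0.19 in thinned cells, -0.018 without the 5% of cells with most counts and -0.11 with offsets, and -0.14 to 0.15 without a library. Abcc1 had -0.28 to 0.033 without a library. Both were uncalled throughout, and the cause was not tested. Over all genes 2405 (22.9%) were called, 714 (6.80%) by DESeq2's Wald test and 1447 (15.4%) in thinned cells. The share of all genes called was 10.4% without a filter, 19.4% in cells with at least 1000 counts and 18.8% with offsets. The list counts that follow stand beside these shares. Counts for regulators, glutathione genes, oxidising and aldehyde enzymes, and uptake carriers were 8, 6, 7 and 3. They were 3, 2, 1 and 0 by DESeq2 (at an unadjusted p under 0.05, 1 uptake carrier). In thinned cells the last 3 were 3, 4 and 0 (edgeR; 1 uptake carrier higher and 1 lower at an unadjusted p under 0.05). Without a filter regulators were at 4, aldehyde enzymes at 3 and carriers at 1, in cells with at least 1000 counts regulators at 5 and carriers at 1, and with offsets 5 and 1. Without a library, where the lone library of a population is assumed to vary like the others, they were 3 to 6, 3 to 6, 3 to 4 and 1 to 2. The replicate block, pairing libraries by title number, called 2549 genes and gave Abcg2 0.76 (log2 fold). The deviations of same-numbered libraries were hardly correlated (r = 0.0084 across genes). These deviations include counting error, which weakens r, so this r cannot decide whether the numbers pair the libraries. The share with any pump differed by 2.79 percentage points (GFP+ minus RFP+), and by 4.56 in cells not thinned, 4.06 thinned to 1500 and 4.60 not thinned without the 5% deepest. That with Abcc5 differed by 0.318 points, and by 1.23 thinned to 1500. That with 2 or more pumps differed by -0.052, and by 0.325, 0.132 (750 counts), 0.596 (1500) and 0.269. Depth limits Abcb1a, Abcc3, Abcc4 and Abcc5.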
